A study of Mus musculus with 11 samples.

Results

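The liver of mice that lacked Nemo in hepatocytes and TRAIL in every cell (NemoΔhepa/TRAIL-/-, here Nemo/TRAIL dKO) was compared with wild-type liver (WT) across all genes of an expression array. The members are the 5 arrays that the labels assign to these genotypes, 2 Nemo/TRAIL dKO and 3 WT, of 11 arrays in the series. The other 6 arrays, 3 of mice lacking Nemo in hepatocytes alone (NemoΔhepa, Nemo KO) and 3 of mice lacking Nemo in hepatocytes and TNFR1 in every cell (NemoΔhepa/TNFR1-/-, Nemo/TNFR1 dKO), entered the same fit and served for 2 direct comparisons. All mice were males of the C57/BL6 strain, 8 to 9 weeks old, on chow diet and untreated, and each array measured total RNA of whole liver. Nemo carried loxP sites, while the TRAIL and TNFR1 alleles were constitutive. Which line supplied the Cre recombinase, and whether WT mice carried loxP sites, the sources used here do not give. The labels do not say in so many words that replicates are separate animals, so p-values measure the spread between these samples.

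Nemo, encoded by Ikbkg, is the regulatory subunit of the kinase complex that switches on NF-kB, a transcription factor that protects hepatocytes from the death signals of inflammatory cytokines. Livers whose hepatocytes lack Nemo are known for spontaneous hepatocyte death, compensatory proliferation, inflammation, fatty change and fibrosis. TRAIL, encoded by Tnfsf10, is a ligand of the tumour necrosis factor family that kills cells through the death receptor encoded by Tnfrsf10b and caspase-8. The comparison asks which expression changes of the injured liver were present when TRAIL was lacking.

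Values are the deposited log2 RMA values, so a difference of 1 is a 2-fold change in signal. Differences are given in log2 units with the standard error (SE) of a limma fit, positive where Nemo/TRAIL dKO was higher, and a gene was said to rise or fall where the Benjamini-Hochberg adjusted p was below 0.05. Array medians lay between 6.26 and 6.32 on all 11 arrays. Of 7 hepatocyte markers 6 were measured, and Alb, Ttr, Apoa1, Apob, Ahsg and Trf read 13.07 to 13.93, at or above the 99.7th percentile of all probe sets. WT replicate 3 stood apart in pancreatic acinar markers, whose mean over 15 genes relative to the WT mean was 3.67 there and -2.10 to -1.78 on every other array. Its chymotrypsinogen gene Ctrb1 read 12.84 there, against 6.40 and 5.97 in the other WT arrays and 5.94 and 5.56 in Nemo/TRAIL dKO. None of the 15 acinar genes was called by limma, and 0 had an unadjusted p below 0.05, with a median of -2.05 that became -0.22 without WT replicate 3. The array names carry a code that differs between WT and Nemo/TRAIL dKO, and what it marks is not given, so that code and genotype cannot be told apart. The 2 Nemo/TRAIL dKO arrays differed from each other by over 2-fold in 71 of 19938 genes (0.356%).

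The targeted genes were read first. Ikbkg (probe set 10600453) measured 8.65, 8.73 and 8.60 on the WT arrays and 8.28 and 8.22 on the Nemo/TRAIL dKO arrays. The groups did not overlap, and the gene fell by 0.41 ± 0.09 (adjusted p = 0.0239). That call was lost without Nemo/TRAIL dKO replicate 1 (adjusted p = 0.105), Nemo/TRAIL dKO replicate 2 (0.133), WT replicate 1 (0.0536) or WT replicate 2 (0.0728). Tnfsf10 (probe set 10491091) measured 6.996, 6.948 and 6.514 in WT and 6.23 and 6.11 in Nemo/TRAIL dKO. Both double-knockout arrays lay below every WT array, but the difference of -0.65 ± 0.19 missed the threshold (adjusted p = 0.0749). Of 21 alternative limma fits 16 missed it too and 5 passed it. It passed without WT replicate 3 (-0.80, adjusted p = 0.0348) or Nemo KO replicate 1 (0.0478). The other passes came with the replicate block (0.00892), the filter at the median (0.0392) or single-symbol probe sets only (0.0354). The labels do not say which part of either gene is deleted or where the probes lie, and the Nemo deletion is limited to hepatocytes, so residual signal checks the labels only in part. In whole tissue, fewer cells of a type and less RNA per cell cannot be told apart, here and in every result that follows.

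Over all 35556 probe sets, 2684 were called between Nemo/TRAIL dKO and WT (7.55%), 1746 higher and 938 lower. Counted with 1 probe set for each of 19938 named genes, 6.88% of genes rose and 3.34% fell, and the median difference of all genes was -0.04. Unadjusted p-values below 0.05 were found for 7526 probe sets, against 1778 that chance alone would give. A call lost with an array left out can reflect lower precision as well as that array's values, here and below. Leaving out a Nemo KO or Nemo/TNFR1 dKO array does not change a difference from WT, only its SE and p-value. The count of called probe sets was lower without either double-knockout array. It was 823 without Nemo/TRAIL dKO replicate 1 and 1485 without replicate 2, of which 767 and 1308 were among the 2684. With each array centred on its median, 1598 of 2761 called probe sets were higher, a smaller majority than in the main fit.

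**Figure D1:**
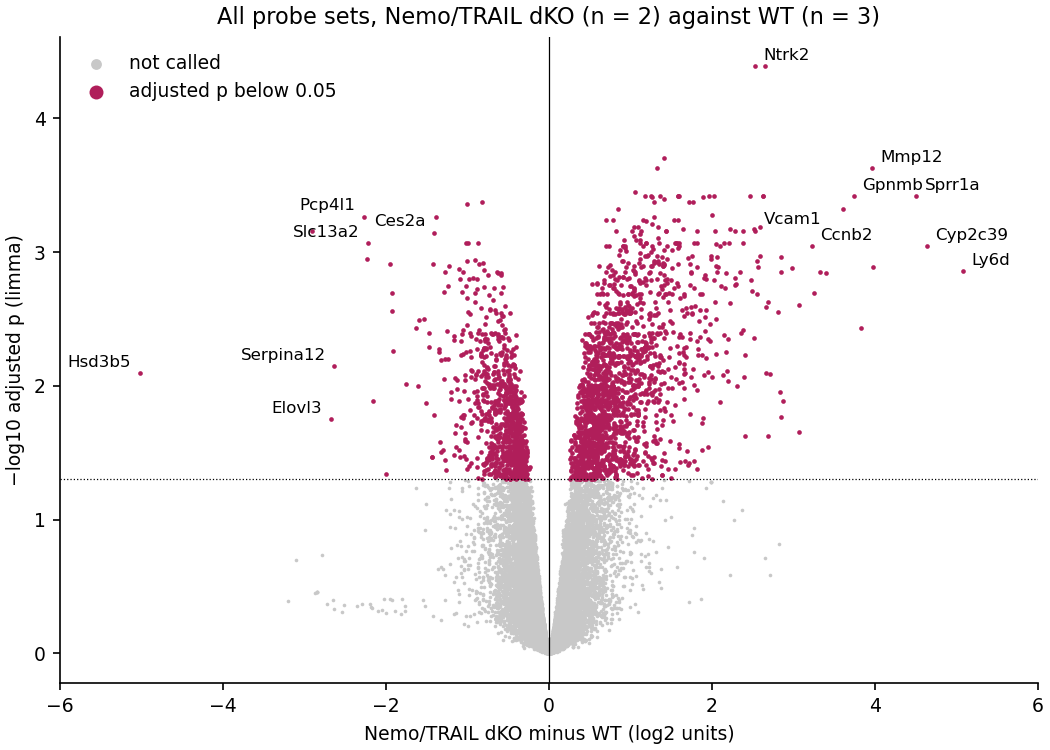
Difference between Nemo/TRAIL dKO (n = 2) and WT (n = 3) on the horizontal axis, in log2 units, against −log10 of the limma adjusted p, for 35556 probe sets; coloured points are the 2684 called at adjusted p below 0.05, and the dotted line marks that threshold. More called points lie to the right (1746) than to the left (938), and Ly6d (5.09) and Hsd3b5 (-5.02) are the named genes farthest out on each side.

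The largest rises among named genes included epithelial, macrophage and cell cycle genes. The genes with the largest rises and falls were named only where the groups did not overlap, so that separation is no separate evidence. Ly6d (probe set 10429520), which encodes a surface protein of the LY6 family, read 5.86, 6.82 and 6.46 in WT and 11.17 and 11.76 in Nemo/TRAIL dKO. The difference was 5.09 ± 0.57 (34.0-fold, adjusted p = 0.00138). Sprr1a, a precursor of the cornified cell envelope that is induced by stress, read 6.20, 6.07 and 6.49 against 10.70 and 10.83. It rose by 4.51 ± 0.34 (22.8-fold, adjusted p = 0.000383), with less spread within groups than Ly6d. Mmp12, the elastase of macrophages, read 5.64, 5.41 and 5.99 against 9.50 and 9.80 (3.97 ± 0.24, 15.7-fold, adjusted p = 0.000236). Gpnmb, a glycoprotein of lipid-laden macrophages, rose by 3.74 (13.4-fold), Gldn, an extracellular adhesion protein, by 3.62 (12.3-fold), and the transcription factor gene Mybl1 (A-Myb) by 3.83 (14.3-fold). D17H6S56E-5 rose by 3.98 (15.7-fold). The steroid-converting enzyme gene Akr1c18 rose by 3.07 ± 0.67 (adjusted p = 0.0222), but its 2 double-knockout arrays differed (7.62 and 8.41), and its call was lost without either of them (adjusted p = 0.0846 and 0.14), without WT replicate 2 (0.0652) or without WT replicate 3 (0.0516).

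Cyp2c39, a cytochrome P450 of the 2C family, rose 25-fold. It read 6.33, 7.25 and 6.25 in WT and 10.59 and 11.92 in Nemo/TRAIL dKO, a difference of 4.64 ± 0.46 (adjusted p = 0.000901). On the Nemo KO arrays it read 7.11, 6.98 and 6.91, and on the Nemo/TNFR1 dKO arrays 8.36, 7.46 and 7.04, so both Nemo/TRAIL dKO arrays lay above all 9 others. Several P450 genes of the 2C family are close copies of each other, and how much of the signal comes from Cyp2c39 itself was not tested.

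The deepest falls included genes that mouse liver expresses more in males, and transporters and enzymes of hepatocytes. Hsd3b5 (probe set 10500545), a steroid-metabolizing enzyme of male liver, read 12.001, 11.848 and 12.104 in WT and 8.14 and 5.78 in Nemo/TRAIL dKO. WT was uniform while the double-knockout arrays differed widely, and the fall of 5.02 ± 0.86 (32.5-fold, adjusted p = 0.00806) lost its call without Nemo/TRAIL dKO replicate 2 (-3.84, adjusted p = 0.0614). Slc13a2, a carrier of dicarboxylates such as succinate, read 7.17, 7.12 and 6.33 against 4.62 and 4.70. It fell by 2.22 ± 0.21 (adjusted p = 0.000861), and the double-knockout arrays were close together. Pcp4l1 fell by 2.27 ± 0.19 (adjusted p = 0.000542), from 8.46, 8.49 and 8.08 to 6.09 and 6.06. Further genes that fell were Serpina12, which encodes the adipokine vaspin (-2.64), Cyp2c37, a P450 (-1.93), Mup21, a major urinary protein with many close copies (-1.92), and Slco1a1, an organic anion carrier (-1.63). Hnf4aos (-1.91) and the carbonic anhydrase gene Car1 (-1.61) fell too, and both lost their calls without Nemo/TRAIL dKO replicate 1 (-1.80, adjusted p = 0.0579, and -1.40, adjusted p = 0.101).

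**Figure D2:**
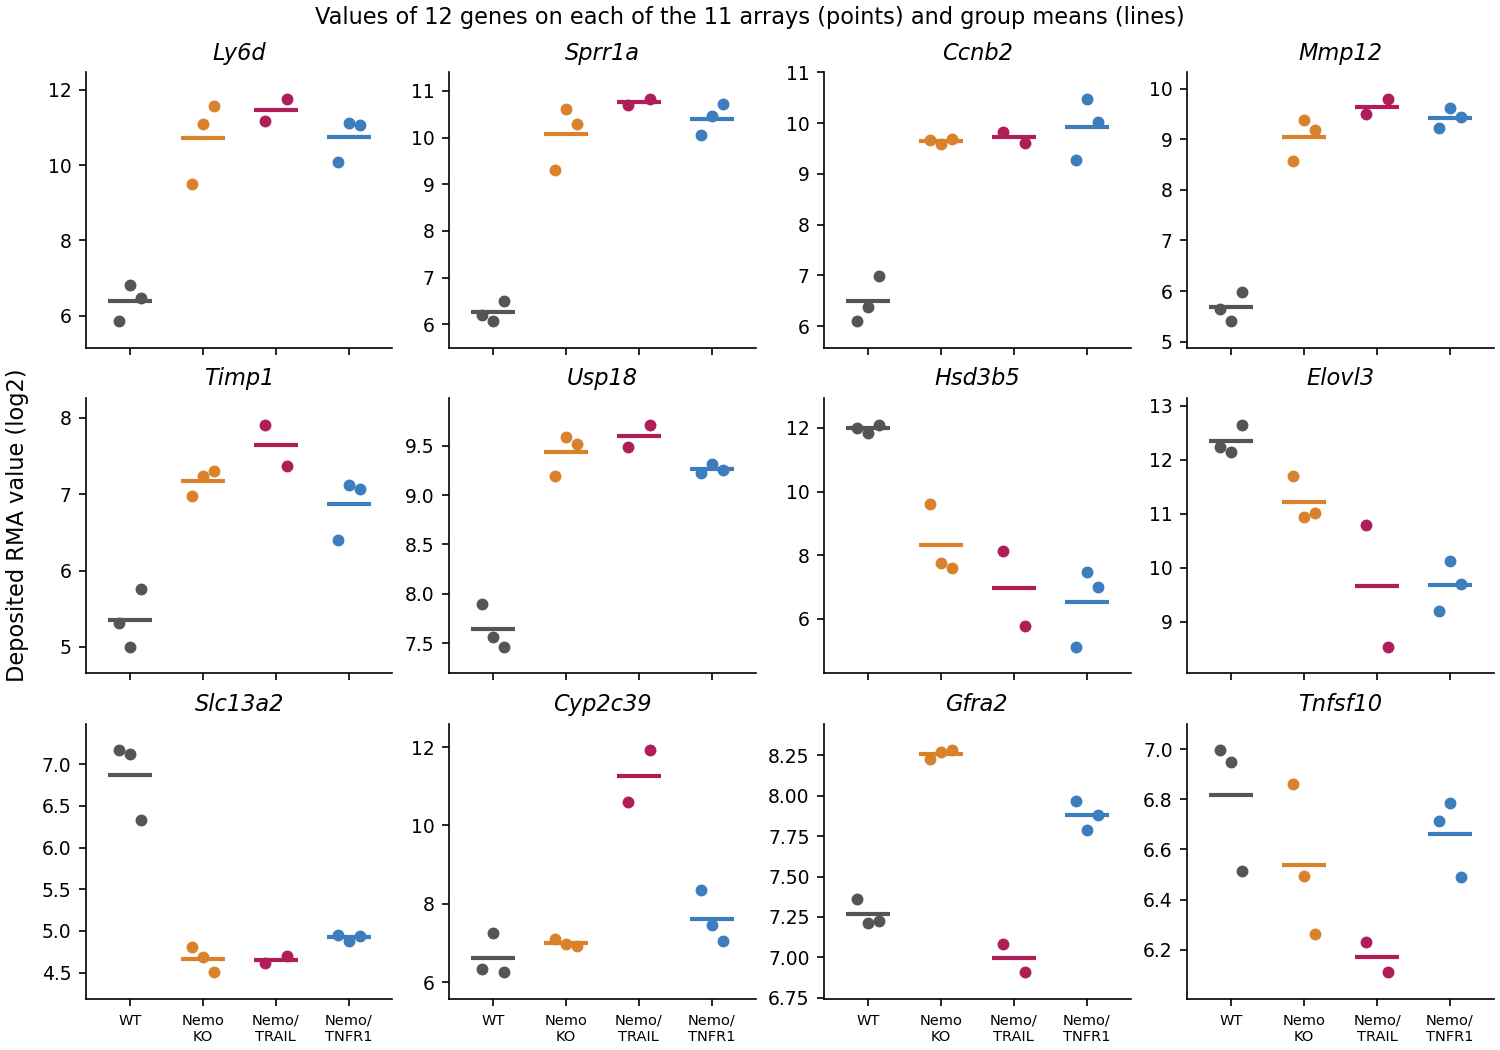
Deposited log2 RMA values (vertical axis) of 12 genes on each of the 11 arrays, with points for arrays and lines for group means; the groups are WT (n = 3), Nemo KO (n = 3), Nemo/TRAIL dKO (n = 2) and Nemo/TNFR1 dKO (n = 3). The WT arrays stand apart from all Nemo-deficient arrays for Ly6d, Sprr1a, Ccnb2, Mmp12, Timp1, Usp18, Hsd3b5 and Slc13a2, whereas Cyp2c39 is high on the Nemo/TRAIL dKO arrays (10.59 and 11.92) and Gfra2 is high on the Nemo KO (8.22 to 8.28) and Nemo/TNFR1 dKO (7.79 to 7.97) arrays.

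Genes were then read in 42 lists by role, with 847 of 938 entries measured. The lists were chosen with earlier results of these data known, and their named members are mostly the largest called ones. High shares and separated groups are therefore descriptions and no separate evidence. A share of members called near 6.88% higher or 3.34% lower is what all genes gave. Counts of members at an unadjusted p below 0.05 take both directions together and use all arrays. They are to be read beside the 7526 of all 35556 probe sets that limma gave at that threshold. A list count near that share, as for immediate early genes or neutrophil markers, says nothing particular about the list. Several list medians near 0 moved by more than their own size with single arrays left out. The B cell median then ran from -0.04 (without WT replicate 2) to 0.05 (WT replicate 3), the endothelial median from -0.04 (Nemo/TRAIL dKO replicate 2) to 0.12 (replicate 1) and that of haem and iron genes from -0.03 (WT replicate 3) to 0.05 (WT replicate 1). Without Nemo/TRAIL dKO replicate 2 the medians of acute phase genes (0.15), T and NK cell markers (0.17), NF-kB targets (0.045) and death ligands (-0.07) all lay farther from 0 than with all arrays.

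Death signalling came first. Of 7 death ligands none was called by limma, with 2 at an unadjusted p below 0.05 and a median of -0.03. The list holds the targeted gene Tnfsf10, which was 1 of those 2 and had the lowest difference (-0.65). Of 12 death receptors and decoys 5 rose, with a median of 0.37. Against WT the list also had 5 members called higher in Nemo KO and 5 in Nemo/TNFR1 dKO, comparisons that share the WT arrays. Tested directly against Nemo KO, limma called none of the 12, and the median was 0.08. Tnfrsf10b, the receptor for TRAIL in mice, read 6.18, 6.33 and 6.23 in WT and 7.57 and 7.65 in Nemo/TRAIL dKO. It was higher than in WT on both Nemo/TRAIL dKO arrays, by 1.36 ± 0.20 (2.57-fold, adjusted p = 0.00401). Eda2r, a receptor of the same superfamily and a p53 target, rose by 1.97 ± 0.28 (adjusted p = 0.00344). Tnfrsf12a, the receptor for TWEAK, rose by 1.14, Tnfrsf21 (death receptor 6) by 0.76 and Tnfrsf1a, which encodes TNFR1, by 0.43. In the fit without Nemo/TRAIL dKO replicate 1 only 2 of the 12 were called. Tnfrsf12a (adjusted p = 0.0519) and Tnfrsf21 (0.0701) lost their calls there, and Tnfrsf1a lost its call without either double-knockout array (0.175 and 0.113), WT replicate 2 (0.0886) or WT replicate 3 (0.0729).

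Downstream of the receptors, 2 of 13 adaptor and necroptosis genes rose. Mlkl, the membrane-rupturing effector of necroptosis, read 6.50, 6.06 and 5.93 in WT and 7.78 and 7.46 in Nemo/TRAIL dKO, a rise of 1.45 ± 0.17 (adjusted p = 0.00158). Zbp1, a nucleic acid sensor upstream of necroptosis that is also induced by interferon, rose by 1.22 ± 0.23 and was not called without Nemo/TRAIL dKO replicate 1 (0.85, adjusted p = 0.11). Of 17 genes of the BCL2 family and executioner caspases 5 rose and 2 fell. Casp12, an inflammatory caspase gene, rose by 1.43, Apaf1, the scaffold of the apoptosome, by 0.80 and the survival gene Bcl2 by 0.71. Bik, a pro-death BH3 gene, fell by 0.63 ± 0.09 (adjusted p = 0.0042). When Nemo/TRAIL dKO replicate 1 was left out, none of the 5 rises was called by limma (adjusted p = 0.14 for Casp12, 0.0559 for Apaf1 and 0.136 for Bcl2), whereas 10 of the 17 genes had an unadjusted p below 0.05 with all arrays. Without Nemo/TRAIL dKO replicate 2 the count was 3. The second fall was not called when any of Nemo/TRAIL dKO replicates 1 and 2, WT replicates 1 and 2, Nemo KO replicates 1, 2 and 3 or Nemo/TNFR1 dKO replicate 2 was left out, which left 1.

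Proliferation genes rose together. Of 35 mitosis genes 33 rose, with a median of 1.84, a highest value of 3.83 (Mybl1) and all 35 above 0. Ccnb2, a cyclin of the G2 to M transition, read 6.10, 6.39 and 6.98 in WT and 9.82 and 9.62 in Nemo/TRAIL dKO. It rose by 3.23 ± 0.32 (9.37-fold, adjusted p = 0.000901), and the highest WT value was on replicate 3. Ccna2, a cyclin of S phase and mitosis, rose by 3.07 ± 0.40 (8.4-fold), and Plk1, a kinase that drives mitotic entry, by 2.85 ± 0.32 (7.2-fold). The mean of the list stood 2.02 and 1.74 above WT on the 2 double-knockout arrays. With only Nemo/TRAIL dKO replicate 2 to represent the genotype, that is without replicate 1, 15 of the 35 were called, while 29 were called without replicate 2. The list's median against WT was 1.91 in Nemo KO and 1.97 in Nemo/TNFR1 dKO, comparisons that share the WT arrays.

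Promoters of genes that act in mitosis are known for CCAAT boxes, bound by NF-Y, and for the cell cycle homology region, bound by the DREAM and B-MYB complexes. The 250 bases before the start site were taken from RefSeq (GRCm38.p6) for the 28 of 35 listed mitosis genes that had an entry, and shown for the called genes with the largest rises that had one. Capitals mark CCAAT boxes (letters CCAAT, or ATTGG on the opposite strand) and the cell cycle homology region (letters TTTGAA on either strand), and the motifs do not overlap each other in these sequences.
Ccnb2, chr9:70421555-70421804, minus strand: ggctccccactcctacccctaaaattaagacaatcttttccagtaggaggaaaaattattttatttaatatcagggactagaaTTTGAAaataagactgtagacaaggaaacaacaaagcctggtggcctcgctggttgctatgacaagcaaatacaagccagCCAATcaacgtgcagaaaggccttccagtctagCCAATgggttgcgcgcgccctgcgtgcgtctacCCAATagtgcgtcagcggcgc
Plk1, chr7:122159185-122159434, plus strand: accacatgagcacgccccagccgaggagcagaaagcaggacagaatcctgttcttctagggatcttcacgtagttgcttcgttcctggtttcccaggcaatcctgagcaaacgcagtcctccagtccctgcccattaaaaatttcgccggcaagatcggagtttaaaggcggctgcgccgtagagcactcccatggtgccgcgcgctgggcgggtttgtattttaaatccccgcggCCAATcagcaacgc
Hmmr, chr11:40733438-40733687, minus strand: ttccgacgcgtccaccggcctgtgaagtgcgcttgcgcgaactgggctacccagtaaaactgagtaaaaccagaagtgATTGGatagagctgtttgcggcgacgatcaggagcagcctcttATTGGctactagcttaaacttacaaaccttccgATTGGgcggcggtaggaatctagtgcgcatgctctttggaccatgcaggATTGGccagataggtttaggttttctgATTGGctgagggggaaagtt
The Ccnb2 promoter held 3 CCAAT boxes, the nearest from 21 to 17 bases before the start, and 1 TTTGAA from 167 to 162 bases before it. Plk1 held 1 CCAAT box, and Hmmr, which encodes a spindle-associated hyaluronan receptor, held 5, all on the opposite strand. Of the 28 promoters 19 held a CCAAT box (67.9%), against 34.5% of all 27018 promoters of the same length, and 12 held more than 1. TTTGAA was found in 8 (28.6%, against 16.3%), and both motifs in 7 (25%, against 5.73%). A match describes letters, not bound sites.

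Of 28 genes of DNA replication 17 rose and 1 fell, with a median of 0.59. Rrm2, a subunit of the enzyme that makes deoxynucleotides, rose by 2.03 ± 0.26 (adjusted p = 0.00236), and Mcm6, of the replicative helicase, by 1.92 ± 0.23 (adjusted p = 0.00158). Mcm5 (1.12) and Mcm2 (0.99) rose too. The count was 5 without Nemo/TRAIL dKO replicate 1 and 7 without replicate 2, and Mcm5 and Mcm2 were lost in both (adjusted p = 0.0509 to 0.0667). Of 17 G1 cyclins and inhibitors 5 rose, with a median of 0.21 (0.33 without Nemo/TRAIL dKO replicate 2). Ccnd1, the cyclin of G1 entry in regenerating liver, read 9.07, 8.56 and 8.96 in WT and 11.58 and 11.19 in Nemo/TRAIL dKO. It rose by 2.52 ± 0.23 (5.73-fold, adjusted p = 0.000677). The inhibitor gene Cdkn2c rose by 1.19 ± 0.10 (adjusted p = 0.000581). E2f1 (0.94) and Ccne1 (0.67) rose with all arrays present and were lost without either double-knockout array and without several others, and the list's count was 2 without Nemo/TRAIL dKO replicate 1 or 2, WT replicate 2 or 3 or Nemo KO replicate 3, and 3 without Nemo KO replicate 1 or 2 or Nemo/TNFR1 dKO replicate 1 or 3. E2f1 was not called without Nemo/TRAIL dKO replicate 1 or 2 (adjusted p = 0.123 and 0.188), WT replicate 1, 2 or 3 (0.0645, 0.0936 and 0.0819), Nemo KO replicate 3 (0.0534) or Nemo/TNFR1 dKO replicate 1 (0.0508). Ccne1 was not called without Nemo/TRAIL dKO replicate 1 or 2 (0.212 and 0.121), WT replicate 2 or 3 (0.11 and 0.0804), Nemo KO replicates 1 to 3 (0.0533 to 0.0603) or Nemo/TNFR1 dKO replicate 3 (0.0575).

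Of 18 genes listed as p53 targets or genes of the DNA damage response 7 rose, with a median of 0.62. The list shares Eda2r with the death receptors and Gadd45b with the NF-kB targets. Ckap2, a spindle-associated gene, rose by 2.49 ± 0.31 (adjusted p = 0.00196), Phlda3, a repressor of AKT signalling, by 1.58 ± 0.17 (adjusted p = 0.00123) and Zmat3, an RNA-binding p53 target, by 0.97 ± 0.16. In the fit without Nemo/TRAIL dKO replicate 2 the count was 4, and Zmat3 was among the genes lost (adjusted p = 0.0566). Of 19 immediate early genes 3 rose, with a median of 0.23 that was 0.09 without Nemo/TRAIL dKO replicate 1 and 0.38 without replicate 2. Klf6, a zinc finger factor of the early wound response, rose by 1.51, Atf3, a stress factor, by 1.38 and Egr2 by 1.29. None of the 3 was called by limma without Nemo/TRAIL dKO replicate 1 (adjusted p = 0.0937 for Klf6, 0.232 for Atf3 and 0.253 for Egr2), where 5 of 19 had an unadjusted p below 0.05 with all arrays. The count was 1 without WT replicate 3 and likewise without Nemo KO replicate 2. Atf3 was lost too without Nemo/TRAIL dKO replicate 2 (0.103), WT replicate 2 or 3 (0.11 and 0.0857), Nemo KO replicate 1 or 2 (0.057 and 0.059) or Nemo/TNFR1 dKO replicate 2 (0.055), and Egr2 without WT replicate 1 or 3 (0.084 and 0.068) or Nemo KO replicate 2 (0.0537). The median of these genes against WT was 0.60 in Nemo KO and 0.42 in Nemo/TNFR1 dKO. Their difference between Nemo/TRAIL dKO and Nemo KO had a median of -0.29 (-0.39 to -0.12 with single arrays left out, the latter without Nemo/TRAIL dKO replicate 2), and limma called none of the 19, with 1 at an unadjusted p below 0.05.

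Of 17 genes listed as oncofetal in hepatocytes 8 rose, with a median of 1.03. The list holds Ly6d and Sprr1a, an LY6 surface protein gene and a cornified envelope gene, and its members were chosen with earlier results of these data known. Scd2, the stearoyl-CoA desaturase of fetal liver, rose by 2.38 ± 0.34 (adjusted p = 0.00382), and Golm1, a Golgi protein raised in liver disease, by 1.59. When Nemo/TRAIL dKO replicate 1 was left out, the count was 4 and Golm1 was not called (adjusted p = 0.0663), and it was 5 when WT replicate 1 or else Nemo KO replicate 2 was dropped. Of 14 cholangiocyte and progenitor markers 3 rose, with a median of 0.48 (0.30 without Nemo/TRAIL dKO replicate 1). Bicc1, an RNA-binding protein of bile ducts, rose by 1.31, Tspan8 by 1.28 and the epithelial adhesion gene Epcam by 1.03. Without Nemo/TRAIL dKO replicate 1 the 3 calls were lost, with differences of 1.04 for Bicc1, 0.79 for Tspan8 and 0.81 for Epcam. In limma 9 of the 14 had an unadjusted p below 0.05 with all arrays. Tspan8 was lost too without WT replicates 1 to 3 (0.0681 to 0.0991), Nemo KO replicate 1 or 2 (0.057 and 0.0533) or Nemo/TNFR1 dKO replicate 2 (0.057). Epcam was lost too without Nemo/TRAIL dKO replicate 2 (0.0584), WT replicate 1 (0.0809), Nemo KO replicate 2 (0.0536) or Nemo/TNFR1 dKO replicate 2 (0.0507). The count was 1 without WT replicate 1 or Nemo KO replicate 2, and 5 without Nemo/TNFR1 dKO replicate 3. The list's mean above WT was 0.71 on Nemo/TRAIL dKO replicate 1 and 0.22 on replicate 2.

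Scar-forming genes rose as a broad group. Of 30 collagen and matrix genes 22 rose, with a median of 0.85. Timp1, the inhibitor of matrix metalloproteases, read 5.312, 5.003 and 5.760 in WT and 7.91 and 7.37 in Nemo/TRAIL dKO. It rose by 2.28 ± 0.28 (4.86-fold, adjusted p = 0.00176). Tnc, a matrix protein of wound repair, rose by 2.30, Thbs1, which activates latent TGF-beta, by 2.17 and Lum, a collagen-binding proteoglycan, by 1.90. Those last 3 calls were lost without Nemo/TRAIL dKO replicate 1 (adjusted p = 0.0986, 0.0608 and 0.0823), as were most of the list, which then counted 4. It counted 13 without Nemo/TRAIL dKO replicate 2, 14 without WT replicate 1 and 13 without WT replicate 2. All Nemo/TRAIL dKO values of these 4 genes lay above all WT values. They were named as the largest called rises of the list, so this separation is no separate evidence.

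Of 20 matrix metalloproteases and inhibitors 9 rose, with a median of 0.56. Mmp13, the collagenase of rodents, read 5.39, 5.38 and 5.66 against 7.83 and 7.88, a rise of 2.38 ± 0.23 (5.22-fold, adjusted p = 0.000861). Plat, tissue plasminogen activator, rose by 1.66 and was lost without Nemo/TRAIL dKO replicate 1 (adjusted p = 0.0875), where the list counted 3. Of 20 stellate cell markers, genes of the liver's collagen-producing pericytes, 9 rose, with a median of 0.61. Sparcl1, an adhesion-modulating matrix protein, rose by 1.60 ± 0.23 (adjusted p = 0.00408) and Cygb, the globin of stellate cells, by 1.24 ± 0.15 (adjusted p = 0.002). The receptor gene Pdgfrb rose by 1.38 and Tagln, a marker of contractile myofibroblasts, by 1.29. Without Nemo/TRAIL dKO replicate 1 the list counted 3 and Pdgfrb was lost (adjusted p = 0.068). Tagln was lost without Nemo/TRAIL dKO replicate 1 or 2 (0.259 and 0.0623), WT replicate 1 or 2 (0.0863 and 0.083), Nemo KO replicate 2 or 3 (0.0573 and 0.055) or Nemo/TNFR1 dKO replicate 3 (0.056).

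**Figure D3:**
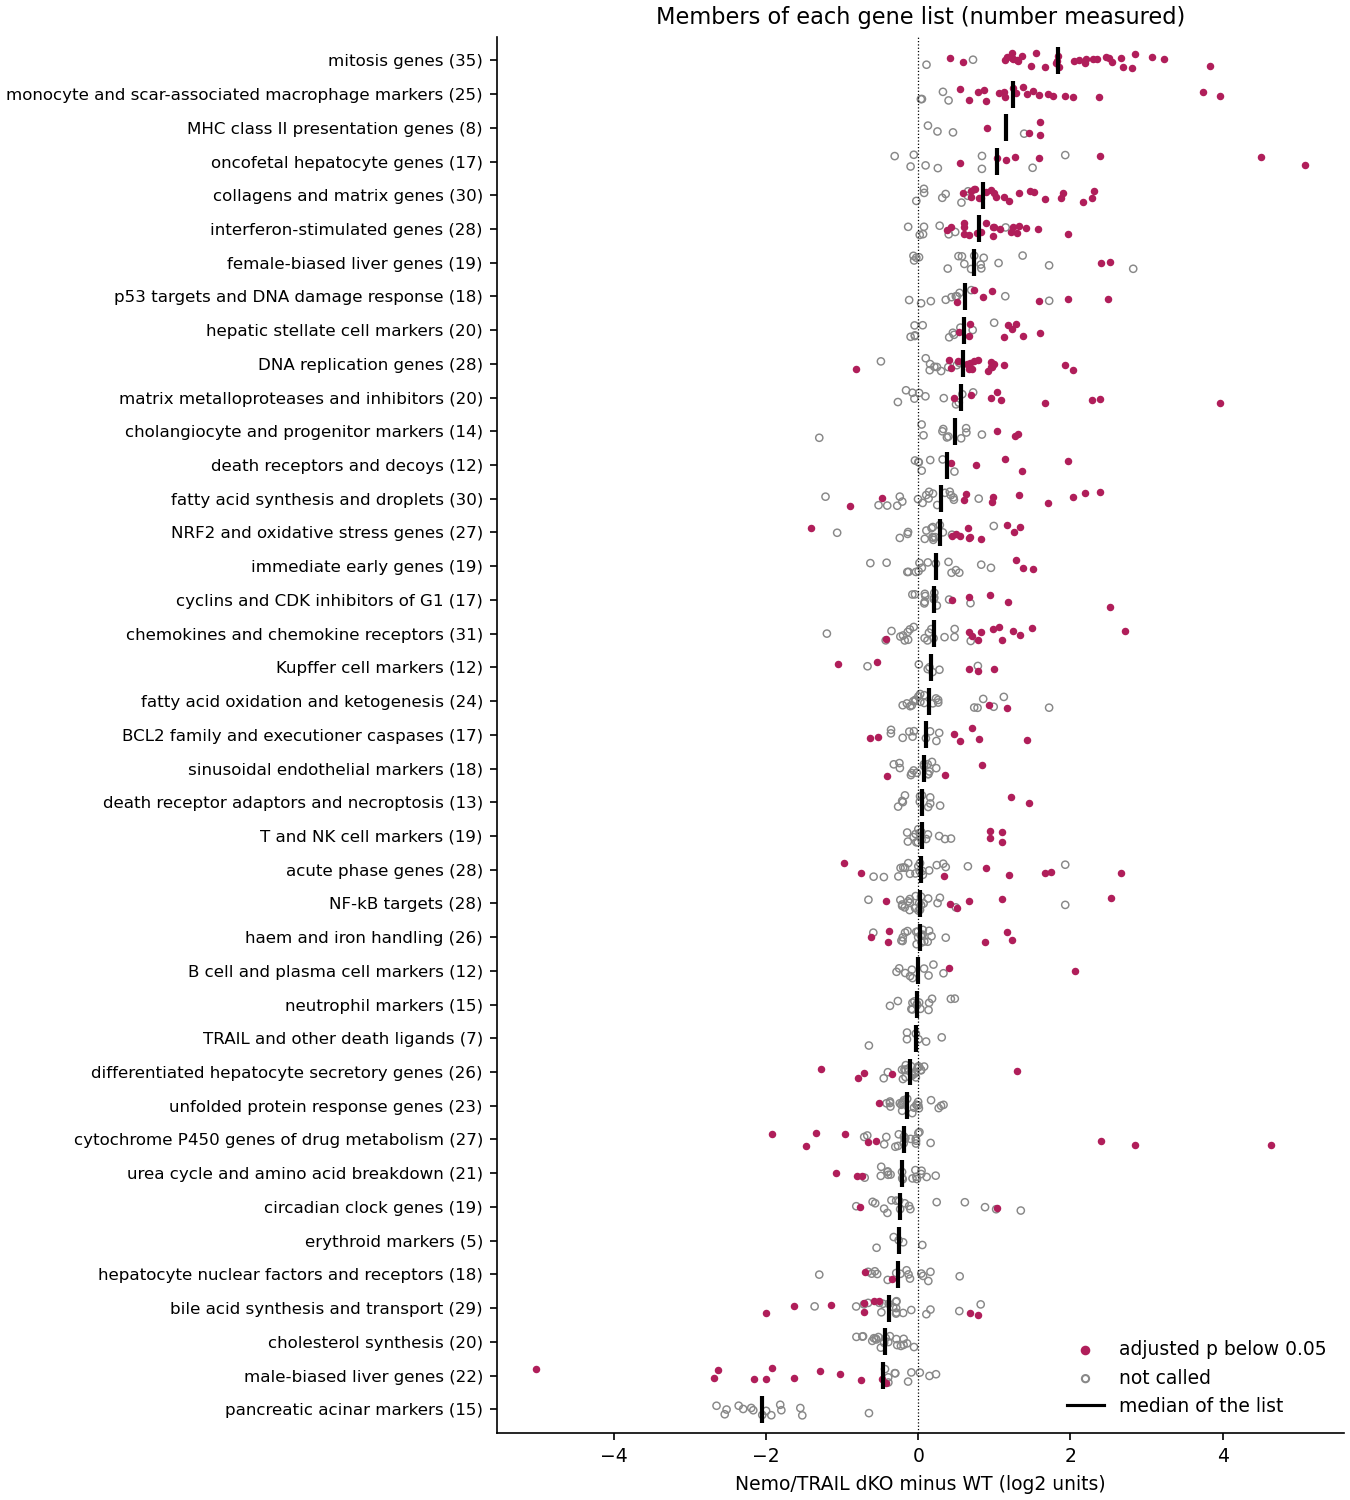
Difference between Nemo/TRAIL dKO (n = 2) and WT (n = 3) in log2 units on the horizontal axis for every measured member of 41 gene lists, with the number of measured members after each name; filled points are called at adjusted p below 0.05, open points are not, and black bars are list medians. Mitosis genes (median 1.84) and monocyte and scar-associated macrophage markers (1.25) lie farthest to the right, and male-biased liver genes (-0.46) and the pancreatic acinar markers (-2.05), which rest on WT replicate 3, farthest to the left.

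Immune cells were read by their markers. Of 25 markers of monocytes and scar-associated macrophages 21 rose, with a median of 1.25 and all 25 above 0. Clec7a, a receptor for fungal glucans, read 6.46, 6.11 and 5.91 in WT and 8.46 and 8.61 in Nemo/TRAIL dKO (2.38 ± 0.21, adjusted p = 0.00069). Lgals3, galectin-3, read 7.39, 7.38 and 7.41 against 9.44 and 9.42 (2.04 ± 0.19, adjusted p = 0.00069). Both groups were tight for Lgals3. Lpl, lipoprotein lipase, rose by 1.70 ± 0.23 (adjusted p = 0.00283). The monocyte receptor gene Ccr2 rose by 1.25 and its ligand gene Ccl2 by 0.67. In the fit without Nemo/TRAIL dKO replicate 1 the list counted 13, and Ccr2 was lost (adjusted p = 0.0514). The mean of the list relative to the WT mean was 1.44 and 1.27 on the Nemo/TRAIL dKO arrays and -0.05 to 0.07 on the WT arrays, and that of the stellate cell markers was 0.72 and 0.59 against -0.15 to 0.14. The part of these cells in the changes of matrix, MHC class II, interferon and chemokine genes was not tested. Ccl2 was lost without Nemo/TRAIL dKO replicate 1 or 2 (0.122 and 0.14), WT replicate 1 (0.0765) or WT replicate 3 (0.054).

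Of 12 markers of Kupffer cells, the resident macrophages, 3 rose and 2 fell, with a median of 0.17. Cd5l, a secreted survival factor of macrophages, rose by 0.99 ± 0.19, Marco, a scavenger receptor, by 0.78 and Il18bp, which neutralizes interleukin-18, by 0.66 ± 0.08 (adjusted p = 0.00207). Cd163, the haemoglobin scavenger receptor, fell by 1.06 ± 0.22 (adjusted p = 0.0175). Cd163 was lost without Nemo/TRAIL dKO replicate 1 (0.151) or WT replicate 2 (0.0546), Cd5l without Nemo/TRAIL dKO replicate 2 (0.106), and Marco without Nemo/TRAIL dKO replicate 1 (0.173), WT replicate 2 (0.0559) or WT replicate 3 (0.0541). Both falls lost their calls without Nemo/TRAIL dKO replicate 1, and 1 of them without replicate 2. Limma called 0 falls without WT replicate 2. It called 1 without WT replicate 1, Nemo KO replicate 1 or 2 or Nemo/TNFR1 dKO replicate 3. With all arrays 7 of the 12 had an unadjusted p below 0.05 in limma, rises and falls counted together. None of 15 neutrophil markers was called by limma, 2 had an unadjusted p below 0.05, and the member with the largest difference, Retnlg, read 0.48 ± 0.19 (adjusted p = 0.182).

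Of 19 T and NK cell markers 4 rose, with a median of 0.04. Il7r, the interleukin-7 receptor gene, rose by 0.94 ± 0.14 (adjusted p = 0.00419). Klrd1, a receptor of NK cells, rose by 1.10, the chemokine gene Ccl5 by 1.10 and Nkg7, of cytotoxic granules, by 0.94. The count was 1 without Nemo/TRAIL dKO replicate 1, 1 without replicate 2 and 2 without WT replicate 2. Klrd1, Ccl5 and Nkg7 were lost without Nemo/TRAIL dKO replicate 1 (adjusted p = 0.0764, 0.125 and 0.112) or replicate 2 (0.0595, 0.0693 and 0.0812), and Ccl5 and Nkg7 also without WT replicate 2 (0.0534 and 0.0543). Of 12 B and plasma cell markers 2 rose, with a median near 0. Blnk, an adaptor of B cell receptor signalling, read 5.93, 5.86 and 5.82 in WT and 8.07 and 7.78 in Nemo/TRAIL dKO (2.05 ± 0.23, 4.15-fold, adjusted p = 0.00126), while Cd22 rose by 0.41 and was lost without Nemo/TRAIL dKO replicate 1 (0.0824). The other 10 B cell markers did not pass, so Blnk moved without most of its list.

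Of 8 genes of MHC class II presentation 4 rose, with a median of 1.15. H2-Aa, H2-Ab1 and Cd74, the chains of the class II complex and their chaperone, rose by 1.60, 1.60 and 1.45, and H2-DMa, a peptide exchange factor, by 0.91. Replicate 1 of Nemo/TRAIL dKO was higher than replicate 2 for all 4, as for H2-Ab1 (11.19 and 10.32, against 9.29, 9.06 and 9.12 in WT). No member was called by limma without Nemo/TRAIL dKO replicate 1 (adjusted p = 0.212 for H2-Aa, 0.216 for H2-Ab1, 0.129 for Cd74 and 0.201 for H2-DMa), 2 were called without replicate 2, and 1 was called without WT replicate 1, 2 or 3. With all arrays 6 of the 8 had an unadjusted p below 0.05. Sinusoidal endothelial markers moved little, with 2 of 18 rising, 1 falling and a median of 0.08. Lyve1, the hyaluronan receptor, rose by 0.83 and Pecam1 by 0.35, and Kdr, a receptor for VEGF, fell by 0.41. Both rises were lost without Nemo/TRAIL dKO replicate 1 (adjusted p = 0.0994 for Lyve1 and 0.0597 for Pecam1) or replicate 2 (0.064 and 0.289), and Pecam1 also without any other array but WT replicate 3 (0.0544 to 0.128). Kdr was lost without Nemo/TRAIL dKO replicate 1 (0.234), WT replicate 1 or 2 (0.0818 and 0.0874) or Nemo KO replicate 2 or 3 (0.0515 and 0.0502). Of 5 erythroid markers limma called none, 1 had an unadjusted p below 0.05, and Alas2, the haem synthesis enzyme of red cells, read -0.55 ± 0.17 (adjusted p = 0.0994).

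Of 28 interferon-stimulated genes 20 rose, with a median of 0.80 and 27 above 0. Usp18, a negative regulator of interferon signalling, read 7.89, 7.57 and 7.46 in WT and 9.49 and 9.72 in Nemo/TRAIL dKO. It rose by 1.96 ± 0.15 (3.9-fold, adjusted p = 0.000383). Oasl2 and Oas2, of the oligoadenylate synthetase family that senses viral RNA, rose by 1.58 ± 0.15 and 1.32 ± 0.19, and Ifi27l2a by 1.42 ± 0.25. The count was 7 without Nemo/TRAIL dKO replicate 1 and 12 without replicate 2, and Ifi27l2a was lost in both (adjusted p = 0.0726 and 0.057). Against WT the list had 14 members called higher and a median of 0.57 in Nemo KO, and 12 and 0.47 in Nemo/TNFR1 dKO, both comparisons sharing the WT arrays. Tested directly against Nemo KO, limma called none of the 28, 4 had an unadjusted p below 0.05, and the median was 0.13.

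The classical element that answers interferon is the interferon-stimulated response element, bound by STAT and IRF factors and read here as GAAA, any 2 bases and GAAA on either strand. Of the 28 listed genes 20 had a RefSeq promoter entry, and 9 of these (45.0%) held the element in the 250 bases before the start, against 3.04% of all promoters; 5 held more than 1. Of the 3 called genes with the largest rises and an entry, Oasl2, Irf7 and Ifit3, the element was found in Ifit3, which encodes an antiviral RNA-binding protein and is therefore shown. Capitals mark its 2 matches, on the opposite strand, from 156 to 147 and from 122 to 113 bases before the start.
Ifit3, chr19:34583279-34583528, plus strand: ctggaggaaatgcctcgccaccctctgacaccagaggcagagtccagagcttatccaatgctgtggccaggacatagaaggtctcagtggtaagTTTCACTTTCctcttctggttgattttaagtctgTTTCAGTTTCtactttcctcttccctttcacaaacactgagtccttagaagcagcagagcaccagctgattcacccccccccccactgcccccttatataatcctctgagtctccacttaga
No match in Oasl2 and Irf7 says that these letters are not in this window.

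Targets of NF-kB, the pathway that Nemo serves, gave 5 rises and 1 fall among 28, with a median of 0.02. Vcam1, an adhesion molecule for leukocytes, read 6.78, 7.32 and 6.83 in WT and 9.26 and 9.76 in Nemo/TRAIL dKO. It rose by 2.53 ± 0.23 (5.79-fold, adjusted p = 0.00069). Icam1, another adhesion molecule, rose by 0.51 and was lost without Nemo/TRAIL dKO replicate 1 (adjusted p = 0.163) or WT replicate 1 (0.0534). The rises numbered 1 without Nemo/TRAIL dKO replicate 1, 2 without replicate 2, 2 without WT replicate 1 and 3 without WT replicate 3. The 1 fall was not called without Nemo/TRAIL dKO replicate 1, WT replicate 1 or WT replicate 2, and 2 falls were called without WT replicate 3. Of 31 chemokine genes 11 rose and 1 fell, with a median of 0.20. Cxcl14, a chemokine of epithelial cells, rose by 2.71 ± 0.47 (6.56-fold), Ccl3, which attracts monocytes, by 1.49 and Ccl6, a chemokine of myeloid cells, by 1.33 ± 0.14 (adjusted p = 0.00107). The rises numbered 2 without Nemo/TRAIL dKO replicate 1 and 7 without replicate 2. Cxcl14 was lost without Nemo/TRAIL dKO replicate 1 (0.0875), and Ccl3 without Nemo/TRAIL dKO replicate 1 or 2 (0.154 and 0.0986) or WT replicate 2 or 3 (0.0591 and 0.0677). The chemokine fall was lost without either Nemo/TRAIL dKO array, WT replicate 1 or 2 or Nemo KO replicate 3.

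Acute phase genes, which hepatocytes switch on in inflammation, gave 6 rises and 2 falls among 28, with a median of 0.04. Orm2, an alpha-1-acid glycoprotein, read 9.00, 8.89 and 8.85 in WT and 10.72 and 10.59 in Nemo/TRAIL dKO (1.74 ± 0.20, 3.35-fold, adjusted p = 0.00142). The metallothionein genes Mt2 and Mt1 rose by 2.66 and 1.67 and the serum amyloid gene Saa2 by 1.19. When Nemo/TRAIL dKO replicate 1 was left out, the rises numbered 2, and Mt2 (adjusted p = 0.0817), Mt1 (0.258) and Saa2 (0.215) were lost. Saa2 was lost too without WT replicate 1, 2 or 3 (0.063, 0.0711 and 0.0638), and Mt1 without Nemo/TRAIL dKO replicate 2 (0.0561), WT replicate 1 or 3 (0.0991 and 0.0907), Nemo KO replicates 1 to 3 (0.0563 to 0.0582) or Nemo/TNFR1 dKO replicate 1 (0.0508).

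Of 27 genes of the NRF2 oxidative stress response 10 rose and 1 fell, with a median of 0.28. Srxn1, sulfiredoxin, read 8.47, 8.37 and 8.34 in WT and 9.70 and 9.74 in Nemo/TRAIL dKO (1.33 ± 0.14, adjusted p = 0.00118). Gstm3, a glutathione transferase, rose by 1.25 ± 0.10 (adjusted p = 0.000383), and the carboxylesterase gene Ces2a fell by 1.41 ± 0.13 (adjusted p = 0.000715). Hmox1, haem oxygenase, rose by 1.16 and was lost without Nemo/TRAIL dKO replicate 1 or 2 (0.12 and 0.107) or WT replicate 2 or 3 (0.0675 and 0.0579). The rises numbered 4 without Nemo/TRAIL dKO replicate 1, 5 without replicate 2 and 6 without WT replicate 2. Falls numbered 2 without Nemo/TRAIL dKO replicate 1. Among 23 genes of the unfolded protein response 1 was called, with a median of -0.14 (-0.07 without Nemo/TRAIL dKO replicate 2 and -0.09 without WT replicate 3). That was Sel1l, of the degradation complex of the endoplasmic reticulum, which fell by 0.51 ± 0.09 and was lost without Nemo/TRAIL dKO replicate 1 (0.0768).

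Most genes of differentiated hepatocyte function were not called, which does not show that they were unchanged. The share that fell was 15.4% of secreted proteins, 11.1% of nuclear factors and 14.3% of urea cycle and amino acid genes. Over all genes 3.34% fell. Members below 0 numbered 21 of 26, 13 of 18 and 17 of 21 in these lists. Of 26 secreted hepatocyte proteins 4 fell and 1 rose, with a median of -0.11. Igfals, the carrier of IGF in blood, read 9.85, 9.68 and 9.90 in WT and 8.72 and 8.36 in Nemo/TRAIL dKO (-1.27 ± 0.14, adjusted p = 0.00142). The coagulation factor genes F7 and F11 fell by 0.79 and 0.71, and Apoa4, an apolipoprotein that follows liver fat, rose by 1.29. Without Nemo/TRAIL dKO replicate 1 the list had 1 fall, and F7 (adjusted p = 0.052), F11 (0.279) and Apoa4 (0.0621) were lost. The F11 call was kept only without Nemo/TRAIL dKO replicate 2 or WT replicate 2, with adjusted p = 0.0525 to 0.279 without any other array. Of 18 hepatocyte nuclear factors 2 fell, with a median of -0.26 (-0.17 without Nemo/TRAIL dKO replicate 1). Cebpa, a factor of hepatocyte differentiation, fell by 0.70 ± 0.17 (adjusted p = 0.0384) and Nr5a2 by 0.35 ± 0.08 (adjusted p = 0.0338). Cebpa was lost without any array except Nemo/TNFR1 dKO replicates 1 and 3 (0.0507 to 0.237). Nr5a2 was lost without any array except Nemo KO replicate 1 and Nemo/TNFR1 dKO replicates 1 and 3 (0.0514 to 0.197), and the list counted 5 falls without Nemo/TNFR1 dKO replicate 1. Of 21 urea cycle and amino acid genes 3 fell, with a median of -0.21 (-0.40 without Nemo/TRAIL dKO replicate 2). Hal, histidase, fell by 1.08 ± 0.17 (adjusted p = 0.00586), Gldc, of glycine cleavage, by 0.81 ± 0.09 (adjusted p = 0.0012) and Agxt, which detoxifies glyoxylate, by 0.74. Agxt was lost without Nemo/TRAIL dKO replicate 1 (0.0856), and the list counted 6 falls without Nemo/TNFR1 dKO replicate 1.

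Male mouse liver differs from female liver in many enzymes under growth hormone control, and all mice here were males. Of 22 male-biased genes 12 fell, with a median of -0.46. Elovl3, a fatty acid elongase, read 12.23, 12.15 and 12.65 in WT and 10.79 and 8.54 in Nemo/TRAIL dKO. Its fall of 2.68 ± 0.55 (adjusted p = 0.0177) was lost without Nemo/TRAIL dKO replicate 2 (-1.55, adjusted p = 0.0641) or WT replicate 3 (-2.52, 0.0502). Sult5a1, a sulfotransferase, fell by 2.16, and so did Cyp7b1, an oxysterol hydroxylase of bile acid synthesis (-2.002). Sult5a1 was lost without Nemo/TRAIL dKO replicate 1 or 2 (0.078 and 0.0812), and Cyp7b1 was kept only without Nemo/TRAIL dKO replicate 1 or Nemo/TNFR1 dKO replicate 1, with adjusted p = 0.055 to 0.279 without any other array. The male-biased count was 7 without Nemo/TRAIL dKO replicate 2. Of 19 female-biased genes 2 rose, with a median of 0.74 (0.46 without Nemo/TRAIL dKO replicate 2). Ntrk2, a neurotrophin receptor gene, read 5.52, 5.67 and 5.82 against 8.30 and 8.09. It rose by 2.52 ± 0.12 (5.76-fold, adjusted p = 4.07e-05). Cyp2b10, a P450 induced by the receptor CAR, rose by 2.41 ± 0.53 (5.3-fold), with 7.77 and 9.80 on the double-knockout arrays. It was lost without Nemo/TRAIL dKO replicate 2 (0.118) or WT replicate 3 (0.0633), which left 1 called gene without that replicate of the double knockout. Replicate 2 of Nemo/TRAIL dKO lay farther from WT than replicate 1 in both lists, with means of -1.31 and -0.85 for male-biased and 1.30 and 0.58 for female-biased genes, and the 3 WT arrays themselves ranged from -0.36 to 0.46 in the female-biased mean.

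Of 27 P450 genes of drug metabolism 3 rose and 6 fell, with a median of -0.19 (-0.34 without Nemo/TRAIL dKO replicate 2). Beside Cyp2c39 and Cyp2b10, Cyp2a22 rose by 2.85 ± 0.58 (7.22-fold, adjusted p = 0.0172), with 8.26 and 10.19 on the double-knockout arrays. It was lost without Nemo/TRAIL dKO replicate 2 (0.114) or WT replicate 2 (0.0559). The rises numbered 1 without Nemo/TRAIL dKO replicate 2, and the falls 3 without replicate 1. Of 29 genes of bile acid synthesis and transport 7 fell and 2 rose, with a median of -0.39. Klb, a co-receptor for the gut hormone FGF15, fell by 1.15 ± 0.20, and Abcb4, the phospholipid carrier of bile, rose by 0.79 ± 0.09 (adjusted p = 0.00147). Klb was lost without Nemo/TRAIL dKO replicate 1 (adjusted p = 0.0886), where the list counted 2 falls. It counted 4 falls without WT replicate 2, 12 without Nemo/TNFR1 dKO replicate 1, and 1 rise without Nemo/TRAIL dKO replicate 2.

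Lipid genes were read by storage, sterol synthesis and oxidation. Of 30 genes of fatty acid synthesis and lipid droplets 9 rose and 2 fell, with a median of 0.30 (0.20 without Nemo/TRAIL dKO replicate 1). Cd36, the fatty acid carrier, read 8.51, 8.47 and 8.66 in WT and 10.33 and 10.83 in Nemo/TRAIL dKO (2.03 ± 0.14, 4.08-fold, adjusted p = 0.000383). Cidec, a droplet fusion protein, rose by 2.19 ± 0.39 (4.57-fold), from 6.004, 6.252 and 6.945 to 8.90 and 8.29, and was lost without Nemo/TRAIL dKO replicate 1 (1.89, adjusted p = 0.0949). The rises numbered 3 without Nemo/TRAIL dKO replicate 1, 5 without replicate 2 and 5 without WT replicate 3. The 2 falls lost their calls without Nemo/TRAIL dKO replicate 1, and limma called 1 fall without WT replicate 1 or 2. With all arrays 16 of the 30 had an unadjusted p below 0.05 in limma, rises and falls counted together. All 20 cholesterol synthesis genes lay below 0, with a median of -0.44. Limma called none, 7 had an unadjusted p below 0.05, and Mvd, of the mevalonate pathway, differed most (-0.81 ± 0.28, adjusted p = 0.126). Without Nemo/TNFR1 dKO replicate 2 limma called 5 of them, and 1 without Nemo/TNFR1 dKO replicate 1, Nemo/TNFR1 dKO replicate 3 or WT replicate 3.

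Of 24 genes of fatty acid oxidation 2 rose, with a median of 0.14 that was 0.32 without Nemo/TRAIL dKO replicate 1 and near 0 (-0.001) without replicate 2. Acot2, a mitochondrial thioesterase, rose by 1.17 ± 0.19 (adjusted p = 0.00652). Pdk4, which spares glucose by blocking pyruvate dehydrogenase, rose by 0.92 and was lost without Nemo/TRAIL dKO replicate 1 or 2 (0.227 and 0.105), WT replicate 1 or 2 (0.0954 and 0.11) or Nemo KO replicates 1 to 3 (0.0549 to 0.0607), each leaving 1 call. Of 19 clock genes 1 rose and 1 fell, with a median of -0.24 whose sign turned without Nemo/TRAIL dKO replicate 1 (0.12), and which was -0.12 without WT replicate 1 and -0.37 without WT replicate 3. Per1 rose by 1.04 and Cry1 fell by 0.76, both repressors of the clock. Per1 was lost without Nemo/TRAIL dKO replicate 1 or 2 (0.127 and 0.183), WT replicate 1 or 3 (0.0987 and 0.09), Nemo KO replicate 2 (0.0568) or Nemo/TNFR1 dKO replicate 2 (0.0537), and Cry1 without Nemo/TRAIL dKO replicate 2 (0.0941). Of 26 genes of haem and iron handling 3 rose and 3 fell, with a median of 0.02. Id1, a target of BMP signalling, rose by 1.24 ± 0.17 (adjusted p = 0.00298), and Smad7, a brake on that pathway, by 0.87. Slc11a2, an iron carrier, fell by 0.61. Smad7 was lost without Nemo/TRAIL dKO replicate 1 or 2 (0.135 and 0.144) or WT replicate 2 or 3 (0.0753 and 0.0773), each leaving 1 rise. Slc11a2 was lost without Nemo/TRAIL dKO replicate 1 or 2 (0.057 and 0.147). All 3 falls lost their calls without Nemo/TRAIL dKO replicate 1, although the fall of Slc11a2 was then larger (-0.74). With all arrays 8 of the 26 had an unadjusted p below 0.05 in limma, rises and falls counted together.

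**Figure D4:**
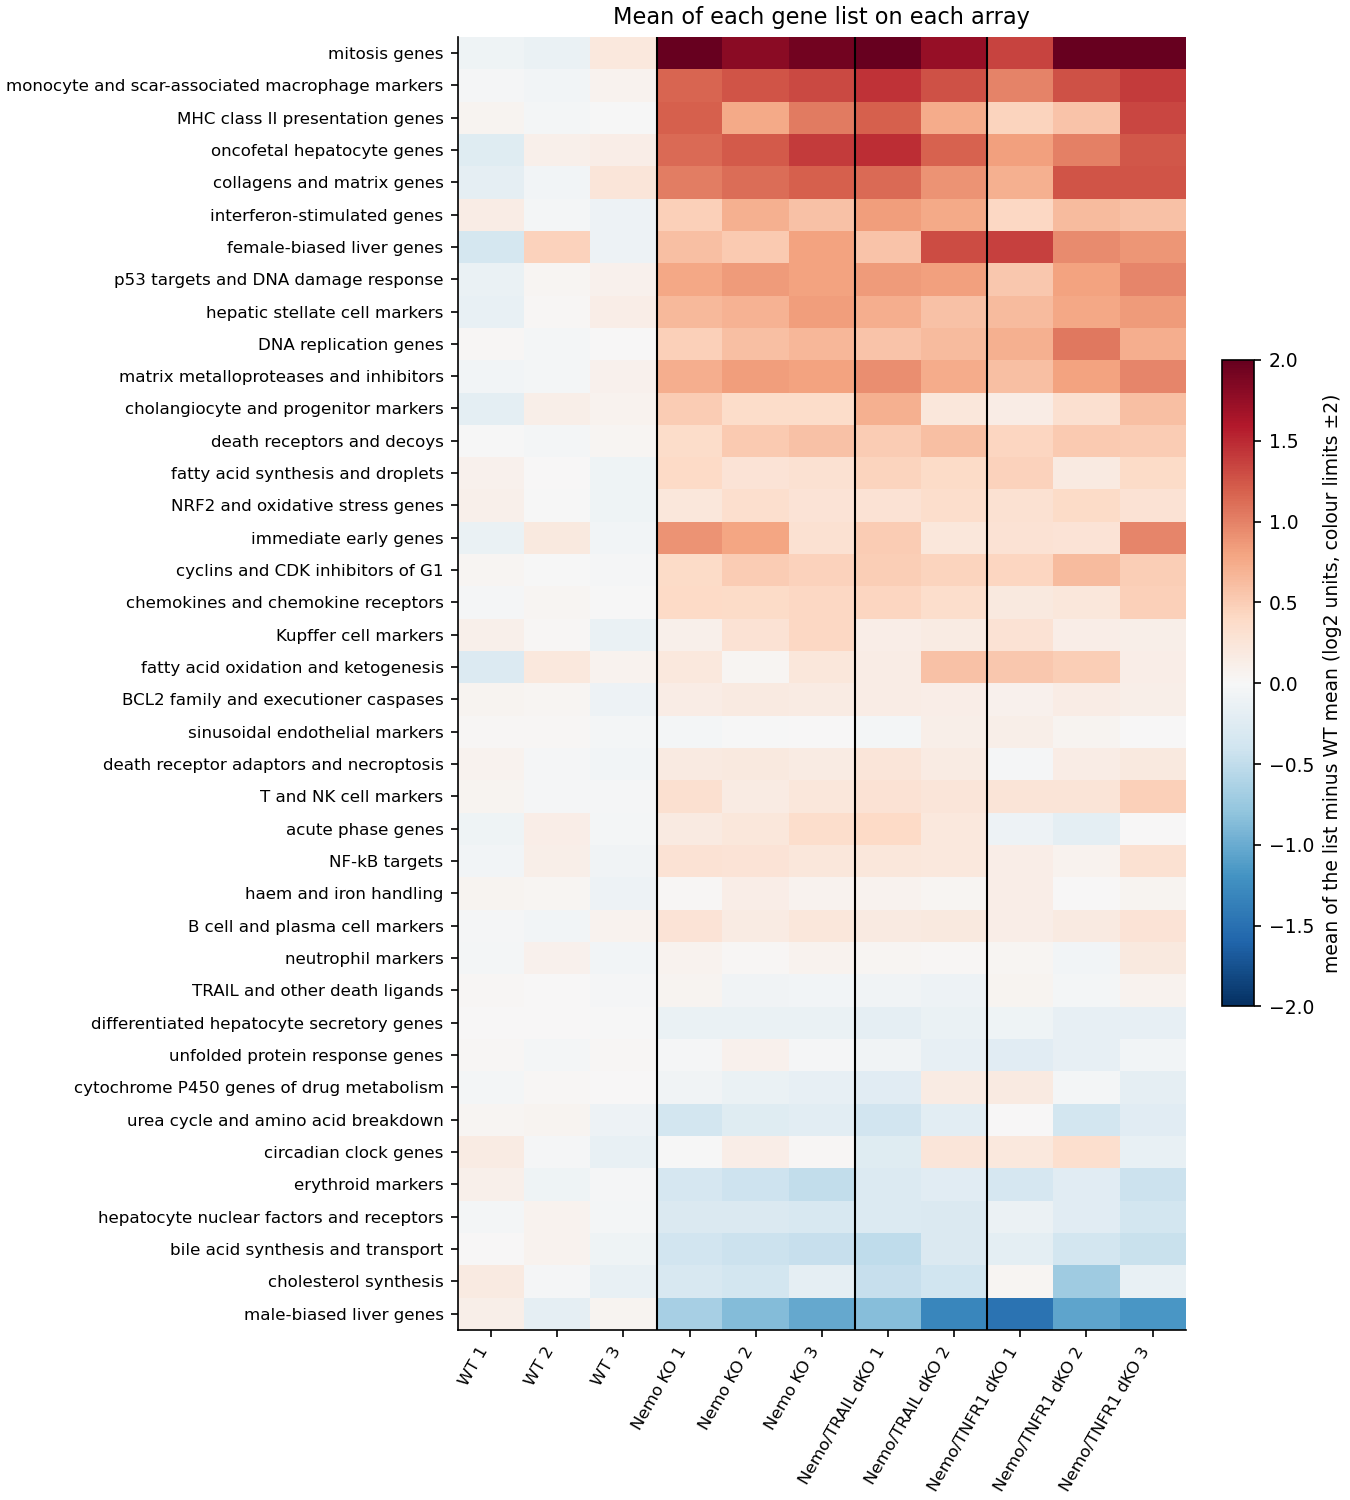
Mean of each gene list (rows) on each of the 11 arrays (columns), as the difference from the WT mean in log2 units; red is higher, blue is lower, the colours end at 2 in either direction, vertical lines separate the groups, and targeted genes and pancreatic acinar markers are left out. The 2 Nemo/TRAIL dKO columns are red for mitosis genes (2.02 and 1.74), and differ from each other most visibly for female-biased liver genes (0.58 and 1.30).

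Nemo/TRAIL dKO was then set directly against Nemo KO, the genotype that by its label differs in TRAIL. Whether anything else differs between these groups was not tested. The fit called 2 of 35556 probe sets (0.00562%), and 1436 had an unadjusted p below 0.05, against 1778 that chance alone would give. The named one was Gfra2 (probe set 10416340), a co-receptor for the neurotrophic factor neurturin. It read 7.08 and 6.91 in Nemo/TRAIL dKO, 8.22, 8.27 and 8.28 in Nemo KO, 7.97, 7.79 and 7.88 in Nemo/TNFR1 dKO and 7.36, 7.21 and 7.22 in WT. Both Nemo/TRAIL dKO arrays lay below all 9 others, and the gene was lower than in Nemo KO by 1.26 (adjusted p = 0.00231). The other called probe set has no gene name in the annotation used and was 2.11 higher than in Nemo KO (adjusted p = 0.00994). In the fit without Nemo/TRAIL dKO replicate 2 limma called 0 probe sets, it called 1 when Nemo KO replicate 1 or 2 was dropped, and without Nemo/TNFR1 dKO replicate 2 it called 5. Cyp2c39 was higher than in Nemo KO by 4.25, with a 95% interval from 3.21 to 5.30 (adjusted p = 0.0596).

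An absent call does not show that the genotypes were alike, so the intervals are given. For 691 of the 793 listed genes the 95% interval of the difference from Nemo KO lay within 2-fold in either direction (87.1%), a smaller share than the 19603 of all 19938 genes (98.3%), and over all genes the interval reached a median of 0.23 to either side. Ccnb2 differed by 0.07 (interval -0.65 to 0.80), Vcam1 by 0.21 (-0.31 to 0.73), Usp18 by 0.17 (-0.17 to 0.50) and Orm2 by -0.14 (-0.59 to 0.30). For these 4 genes a change of over 2-fold in either direction lay outside the interval. Intervals were wider for Ly6d (-0.54 to 2.02), Mybl1 (-1.55 to 0.89), Akr1c18 (-0.93 to 2.05) and Hsd3b5 (-3.29 to 0.57), and reached past 2-fold.

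Some members had intervals that excluded 0 before adjustment, although each adjusted p was 1. Tnfrsf21 was lower than in Nemo KO by 0.50 (interval -0.78 to -0.23), Lgals3 higher by 0.64 (0.22 to 1.06) and Lyve1 higher by 0.57 (0.21 to 0.92). Mmp12 (0.05 to 1.15), Elovl3 (-2.79 to -0.32) and Pcp4l1 (-1.16 to -0.31) were of the same kind. The lists' medians of the difference from Nemo KO were -0.02 for mitosis genes, -0.13 for collagens, 0.05 for the macrophage markers and -0.06 for death ligands. With single arrays left out they ran from -0.17 to 0.09, -0.24 to -0.05, -0.03 to 0.22 and -0.09 to -0.05, so the signs for mitosis genes and macrophage markers turned, and both ends came from the Nemo/TRAIL dKO arrays for the first 3 lists.

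**Figure D5:**
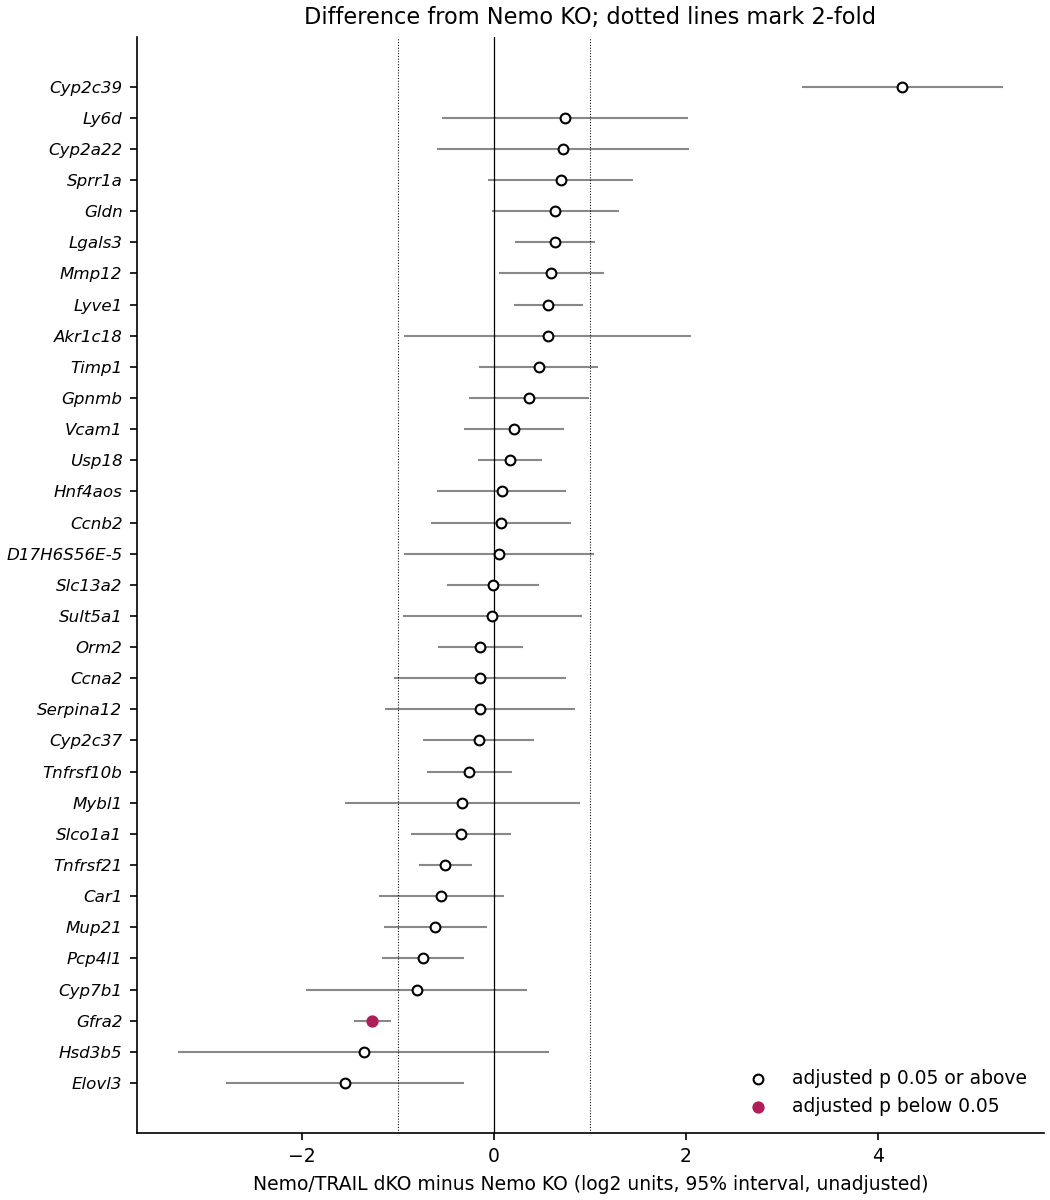
Difference between Nemo/TRAIL dKO (n = 2) and Nemo KO (n = 3) in log2 units, with unadjusted 95% intervals, for the genes with the largest differences from WT and further genes named in the text; the dotted lines mark 2-fold in either direction. Gfra2 (-1.26) is the filled point, called at adjusted p below 0.05, and Cyp2c39 (4.25, interval 3.21 to 5.30) lies farthest from 0.

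Against the other double knockout, Nemo/TNFR1 dKO, 17 probe sets were called (0.0478%), 15 higher in Nemo/TRAIL dKO and 2 lower. Of the 17, 11 had no single gene symbol, and 9 of those 11 belong to 1 family of near-identical gene names. Unadjusted p-values below 0.05 numbered 1788, against 1778 by chance. Orm2 read 10.72 and 10.59 in Nemo/TRAIL dKO and 9.44, 8.95 and 8.90 in Nemo/TNFR1 dKO, a difference of 1.56 (adjusted p = 0.0448). Clec2h, a C-type lectin gene, read 7.51 and 7.51 against 5.79, 5.36 and 5.0, and Prelid2, of a family of mitochondrial lipid carriers, 8.77 and 8.20 against 5.73, 6.40 and 6.09. In each of these 3 genes the 2 groups did not overlap, but they were named because they were called, so this is no separate evidence. Against WT limma called Orm2 and Prelid2 higher, and the Prelid2 call was lost without 7 of 11 single arrays. Clec2h was not called against WT and lay below it, at -0.92 without WT replicate 3. Alad, an enzyme of haem synthesis, was lower by 0.70 (adjusted p = 0.0448), with 11.72 and 11.85 against 12.39, 12.52 and 12.55. Limma did not call Alad against WT. When Nemo/TRAIL dKO replicate 2 was left out, the count was 11.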

How the data were processed

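Whole-liver total RNA was labelled with biotin and hybridized to Affymetrix MoGene 1.0 ST arrays, 1 array per sample. The deposited table holds log2 values that the authors made with RMA, which corrects background, normalizes and summarizes probes; the tool is named in the submitters' processing notes with version not given in the sources used here. Nothing was normalized again. Of 35556 probe sets 21789 had exactly 1 gene symbol in the platform annotation, 1621 had several and 12146 had none; 21698 matched RefSeq by gene ID. A gene with several probe sets was read from the one with the highest mean.

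Samples were grouped by genotype. All 11 arrays entered 1 limma fit (limma 3.58.1, R 4.3.3; lmFit and eBayes, 1 mean per group, 7 residual degrees of freedom), with two-sided tests and Benjamini-Hochberg adjustment within each comparison, called at adjusted p below 0.05. The number of arrays limits the precision, with a median SE of 0.114 log2 units. The fit was tested on simulated data.

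The genotype, the gene lists and the rule for named genes were chosen with earlier results of these data known. Genes were named if targeted; among the 12 largest non-overlapping rises or falls from WT; among the up to 4 largest called members of a list, or the largest where none was called; or called against Nemo KO or Nemo/TNFR1 dKO. Predicted gene models were not named. Further genes were given as noted in the text, and no list was tested as a set. Alternatives varied moderation, normalization, filter, samples, weights, replicate block, threshold and the arrays included; member counts and list medians without single arrays were added after the data were seen.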

Additional observations from a re-analysis of the deposited data

Results flagged for a closer look

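Genes whose change differed between Nemo-deficient genotypes, by the direct limma test, were listed for a closer look. Against Nemo KO, Gfra2 was lower in Nemo/TRAIL dKO (-1.26, adjusted p = 0.00231), and a probe set without a gene name was higher (2.11, adjusted p = 0.00994). Against Nemo/TNFR1 dKO, Gfra2 was again lower (-0.89, adjusted p = 0.0057) and the same unnamed probe set again higher (1.85, adjusted p = 0.0058), so both differed from either comparison group. A second unnamed probe set was higher than in Nemo/TNFR1 dKO (1.497, adjusted p = 0.0133). Cyp2c39 (3.63), Prelid2 (2.41), Clec2h (2.13) and Orm2 (1.56) were higher than in Nemo/TNFR1 dKO, and Alad was lower (-0.70), with adjusted p between 0.0417 and 0.0448. A family of 9 probe sets that each carry 4933409K07Rik among several near-identical gene names was higher by a median of 2.996 (2.64 to 3.30). None of those 9 was called against WT by limma, with a median of 0.53. The unnamed probe sets and that family lie outside the naming rule and were singled out after their values were seen.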

How the results depend on the processing

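Nemo/TRAIL dKO had 2 arrays, and with 1 of them left out the remaining array is assumed to vary like the other groups. Against WT, leaving out each array in turn gave 823 to 2884 called probe sets (599 to 1864 higher, 224 to 1020 lower; 581 lower without WT replicate 2 and 618 without WT replicate 1). With only the 5 arrays compared there were 1244 (988 higher, 256 lower), at least 1.5-fold 1617 (372 lower), and at adjusted p below 0.01 there were 1018 (789 higher, 229 lower). Against Nemo KO the count of 2 became 1 with the filter at the 25th percentile or with only the groups compared, and 0 to 5 with single arrays left out. Against Nemo/TNFR1 dKO the count of 17 became 9 with only the groups compared, 6 with single-symbol probe sets only, 11 at adjusted p below 0.01, and 11 to 17 with single arrays left out. The replicate block gave 2261, 3 and 12 called probe sets in the 3 comparisons. Same-numbered arrays deviated with correlations from -0.26 to 0.09, so the numbers are not treated as pairs. Of 129 named genes called against WT, 55 kept the call without any single array, 52 kept it in every alternative, 39 lost it with only the groups compared and 20 in the replicate block, and none of the 129 changed sign. Alad, which was not called against WT (-0.03), changed sign without Nemo/TRAIL dKO replicate 1 (0.041) or WT replicate 1 (0.017), and read -0.093 without Nemo/TRAIL dKO replicate 2. Of 921 list medians recomputed, 58 moved by more than the spread between replicates. The causes were not tested.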
